A study of Mus musculus with 6 samples.

Results

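Transcripts of 10 genes that build the hyaluronan-bound matrix around neurons and glia were followed in mouse spinal cord after a contusion. They are the lecticans Acan, Bcan, Ncan and Vcan, the membrane proteoglycans Cspg4 (NG2), Cspg5 and Ptprz1, the tenascins Tnc and Tnr, and the link protein Hapln1. The genes were chosen by symbol, with no measured value in the rule, though earlier results of these data were known. All 10 matched 1 of the 43432 Ensembl identifiers in the count tables. The mice were C57BL/6 and wildtype. In 3 of them one side of the cord was contused at C5 (SCI; Infinite Horizon device, 50 kdyn) and tissue was taken after 4 h, and 3 had a laminectomy alone (sham; collection time not used here). The labels give neither age nor sex, and they do not say how far from the impact the tissue reached.

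Lecticans are large secreted proteins that carry chondroitin sulfate chains, bind hyaluronan at one end and tenascins at the other. Link proteins lock the lectican to hyaluronan, and the lattice that results forms perineuronal nets around many neurons of the ventral horn. In the injured cord these proteoglycans are known as constituents of the glial scar that hinder growing axons, and astrocytes, oligodendrocyte precursors and neurons are among the cells that make them.

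The QuantSeq Forward libraries used here count fragments near the 3′ end of poly(A) RNA, so a level is nearly independent of transcript length and no length correction was made. Levels are given as CPM after TMM scaling, that is, counts relative to a library total corrected for composition. Total counts ran from 3407176 to 11543633 per library. Marker genes of neurons, astrocytes and oligodendrocytes each summed to at least 4486 CPM in all 6 libraries (sums over marker lists, here and below, are CPM without TMM scaling). Hepatocyte markers, which a cord should lack, held 6.52% to 12.2% of counts in the sham libraries and 8.19% to 8.59% in the SCI libraries, the most in sham 2. Sham 2 was the lowest sham library in 8 of the 10 genes. The part of the hepatocyte markers in these values was not tested beyond a fit with them as a covariate.

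At 4 h, none of the 10 transcripts passed the test for a difference between SCI and sham (edgeR quasi-likelihood test, Benjamini-Hochberg adjusted p under 0.05 over 13560 genes). Over all genes tested, 0.929% passed, 0.885% higher (120 genes) and 0.0442% lower (6 genes). All 10 had passed the filter on low counts, which asks for 1.42 CPM in at least 3 libraries. Tnc reached that level in 2 sham and 3 SCI libraries and Cspg4 in 3 sham and 2 SCI libraries. Each thus met it in full only in the group where its mean was higher. The other 8 genes reached it in all 6. DESeq2's Wald test and limma voom also called 0 of the 10. Tnc stood apart from the others: it was the single gene of the 10 whose groups did not overlap and the single one with an unadjusted p under 0.05, which 13.7% (7.73% with SCI higher) and 7.38% of all genes tested met. The median log2 fold change of the 10 genes was -0.18, against -0.0025 over all genes tested, and 3 of 10 were positive against 49.7% of all genes.

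**Figure D1:**
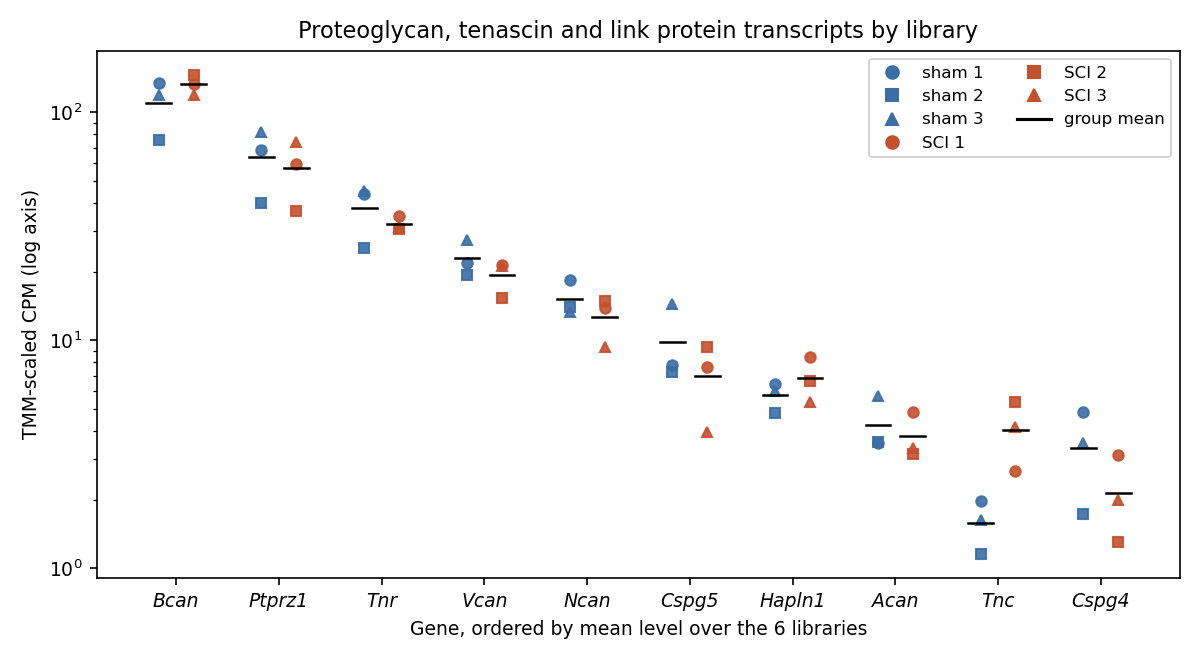
TMM-scaled CPM of each gene (log axis) in the 3 sham libraries (blue) and the 3 SCI libraries (orange), with symbols for replicate numbers and bars for group means. Bcan is the highest in every library, and Tnc is the single gene whose SCI libraries, from 2.66 to 5.34 CPM, all lie above its sham libraries, from 1.16 to 1.97 CPM.

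The order of levels was stable at its upper end. In each of the 6 libraries Bcan was the most abundant, followed by Ptprz1, Tnr and Vcan. The ranges of neighbouring genes over the 6 libraries overlapped at every step of the order. Within a library, Bcan exceeded Ptprz1, Ptprz1 exceeded Tnr and Tnr exceeded Vcan 6 times of 6. Ncan exceeded Cspg5 in 5 libraries and Cspg5 exceeded Hapln1 in 4. Tnc was the least abundant of the 10 in all 3 sham libraries and in SCI 1. In SCI 2 it lay above Acan and Cspg4, and in SCI 3 above Cspg5, Acan and Cspg4.

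The tenascins are shown first, because they were the pair whose values diverged. Both are oligomeric glycoproteins that bind lecticans. Tnc is known from development and wounds, while Tnr belongs to the mature nervous system and to perineuronal nets. The 250 bases upstream of their RefSeq starts follow, 5′ to 3′ on the gene's strand (GRCm38.p6; Tnc at chr4:64047016-64047265, minus strand, and Tnr at chr1:159523519-159523768, plus strand). Capitals mark matches to the motifs named after them.
Tnc: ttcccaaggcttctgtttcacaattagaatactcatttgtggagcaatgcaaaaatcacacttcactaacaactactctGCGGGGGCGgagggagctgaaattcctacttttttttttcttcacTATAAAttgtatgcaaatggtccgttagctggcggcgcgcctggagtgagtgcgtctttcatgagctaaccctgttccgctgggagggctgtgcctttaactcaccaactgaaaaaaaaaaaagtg
Tnr: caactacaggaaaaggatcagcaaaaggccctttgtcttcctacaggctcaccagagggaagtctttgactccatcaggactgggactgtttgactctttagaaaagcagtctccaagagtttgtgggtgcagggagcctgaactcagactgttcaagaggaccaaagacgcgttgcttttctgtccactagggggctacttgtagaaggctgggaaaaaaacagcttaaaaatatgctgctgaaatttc
The first capitals in Tnc match the EGR motif GCGNGGGCG and the second the TATA box motif TATAAA, and neither overlaps another match. From the printed start of Tnc, the EGR match begins at -171 and the TATA box match at -126. From another RefSeq start of Tnc, whose window holds both as well, they begin at -250 and -205. The Tnr stretch holds no match to these or to the AP-1 motif TGANTCA, the CRE motif TGACGTCA, the STAT motif TTCNNNGAA, the NF-kB motif or the CArG box. The search covered both strands of windows of 300 bases, from 250 before to 50 after a start, and 9 of the 10 genes had such a window. The EGR motif was found in 2 of the 9 (Tnc and Ptprz1), against 5.56% of all 32817 windows. The AP-1 motif was in none of the 9 and in 7.81% of all windows, and the TATA box motif in 2 of the 9 (Tnc and Ncan) and in 13.6% of all. The NF-kB motif, in 8.46% of all windows, was in Acan and Cspg4. A match describes letters and not a bound site.

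Tnc (ENSMUSG00000028364, chromosome 4, 63959785 to 64047015, minus strand, GRCm38) had 15, 12 and 6 counts in sham and 22, 37 and 21 counts in SCI, in the order of the replicate numbers that is kept throughout. Its levels were 1.97, 1.16 and 1.63 CPM in sham and 2.66, 5.34 and 4.16 CPM in SCI. Every SCI library was above every sham library, with SCI 1 nearest to the sham range. The group levels were 1.58 ± 0.409 and 4.05 ± 1.34 CPM (SD, n = 3 each). The log2 fold change was 1.36 ± 0.44 (SE), with a 95% interval of 0.42 to 2.30. The unadjusted edgeR p was 0.00746 and the adjusted p was 0.329, so this difference did not pass. By p, Tnc was 307th of 13560 genes. It stayed positive in all 15 alternative fits, from 1.10 without SCI 2 to 1.61 without SCI 1, with an adjusted p from 0.211 to 0.790. Its SE of 0.441 was close to the median of 0.439 for genes of like level, so its precision was typical of its level.

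Tnr (ENSMUSG00000015829, chromosome 1, 159523769 to 159931729) was at 43.7, 25.3 and 45.01 CPM in sham and at 34.9, 30.8 and 31.5 CPM in SCI. The SCI libraries lay close together and inside the sham range. The log2 fold change was -0.22 ± 0.22 (SE; 95% interval -0.68 to 0.25; edgeR adjusted p = 0.919). Without sham 2, the lowest sham library, it was -0.46 ± 0.18 (edgeR adjusted p = 0.451). Tnc made up 4.31%, 4.36% and 3.49% of the counts of both tenascins in sham, against 7.07%, 14.8% and 11.7% in SCI. The exact 95% binomial interval of SCI 2 (10.6% to 19.8%) lay above those of all sham libraries, which ended at 7.01% to 7.50%. That of SCI 3 (7.37% to 17.3%) began just inside the upper end of the intervals of sham 2 and sham 3, and that of SCI 1 (4.49% to 10.5%) overlapped all of them. These intervals cover counting error only. The other tenascin genes, Tnn and Tnxb, did not pass the filter. Tnxb, of connective tissue, had 3 counts in all in sham and 14 in SCI. Corrected for the totals this is a ratio of 5.24 (95% counting interval 1.46 to 28.4). That interval leaves out variation between mice, and without the filter edgeR did not call Tnxb (adjusted p = 0.769). Tnn had 3 counts in sham and 4 in SCI.

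**Figure D2:**
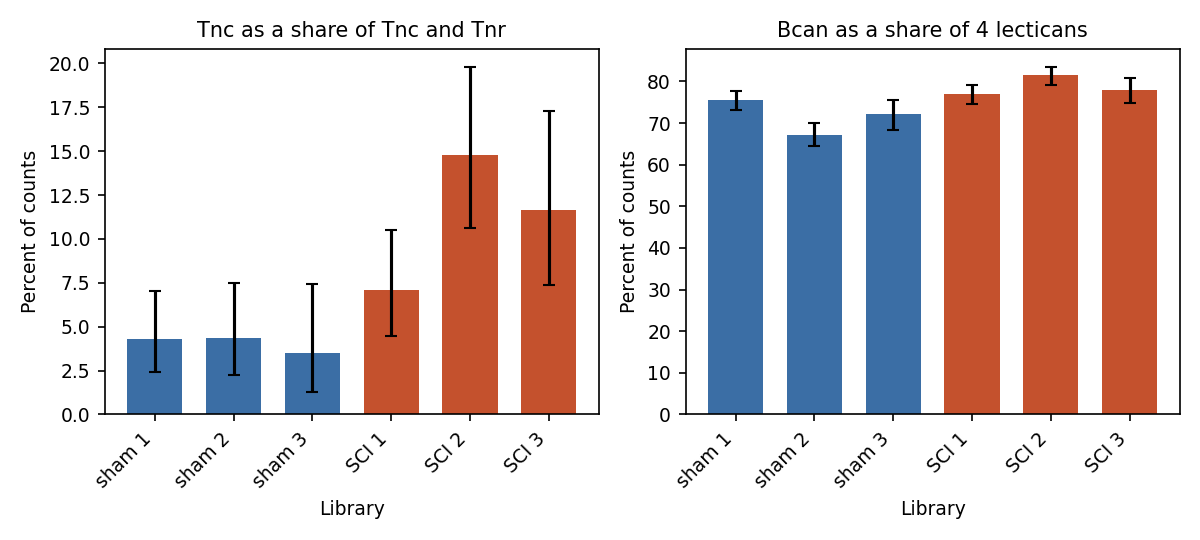
Counts of Tnc as a percentage of Tnc and Tnr together (left) and of Bcan as a percentage of the 4 lecticans (right) in each library, with exact 95% binomial intervals for counting error. Tnc is at 3.49% to 4.36% in sham and 7.07% to 14.8% in SCI, and Bcan at 67.2% to 75.5% in sham and 76.9% to 81.4% in SCI.

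Among the lecticans, Bcan (brevican, ENSMUSG00000004892, chromosome 3, 87987531 to 88000230), the short lectican of the adult nervous system, was at 135, 75.7 and 119.6 CPM in sham. In SCI it was at 133, 146 and 119 CPM. The groups overlapped, and sham 2 was the one library far from the rest. The log2 fold change was 0.28 ± 0.22 (SE; edgeR adjusted p = 0.877) and 0.052 ± 0.17 without sham 2 (edgeR adjusted p = 0.955). Its 95% interval with all libraries, -0.19 to 0.74, lay inside a 2-fold change in either direction. Ncan (neurocan, ENSMUSG00000002341, chromosome 8, 70093085 to 70120873), known to be made by reactive astrocytes, was at 18.4, 14.0 and 13.3 CPM in sham and at 13.9, 14.9 and 9.32 CPM in SCI. The lowest value was that of SCI 3, and the others overlapped. Its log2 fold change was -0.26 ± 0.24 (SE; 95% interval -0.77 to 0.26; edgeR adjusted p = 0.905). A rise of Ncan by 2-fold thus lay outside the interval at this time.

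Vcan (versican, ENSMUSG00000021614, chromosome 13, 89655312 to 89742509), which oligodendrocyte lineage cells and fibroblasts make, was at 21.8, 19.4 and 27.4 CPM in sham. In SCI it was at 21.3, 15.3 and 21.2 CPM. SCI 2 was the lowest library, and the groups overlapped (log2 fold change -0.23 ± 0.22, SE; edgeR adjusted p = 0.908). Acan (aggrecan, ENSMUSG00000030607, chromosome 7, 79053483 to 79115099), the lectican that marks perineuronal nets and is abundant in cartilage, was at 3.55, 3.56 and 5.69 CPM in sham and at 4.84, 3.18 and 3.37 CPM in SCI. One library of each group was high, sham 3 and SCI 1, and the log2 fold change of -0.10 ± 0.36 (SE; edgeR adjusted p = 0.981) had no stable sign: it was 0.11 without sham 3 and 0.013 without SCI 2. Between 17 and 40 counts per library lay behind these Acan levels.

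Bcan alone gave 71.6% ± 4.15 of the counts of the 4 lecticans in sham and 78.7% ± 2.39 in SCI (SD, n = 3 each). The lowest SCI library, at 76.9%, was above the highest sham library, at 75.5%, by less than their counting intervals. Vcan gave 12.2% to 17.2% in sham and 8.53% to 13.8% in SCI. Ncan gave 8.01% to 12.4% against 6.08% to 8.29%, and Acan 1.99% to 3.43% against 1.77% to 2.80%. The shares of Vcan, Ncan and Acan overlapped between the groups. Shares of one library depend on each other, and they were not tested.

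Each lectican gene lies beside a gene of the link protein family in GENCODE's annotation of GRCm38, with no protein-coding gene between. Hapln1 (ENSMUSG00000021613, chromosome 13, 89539796 to 89611652) and Vcan are 43.7 kb apart with their 3′ ends facing. Hapln1, the link protein of cartilage and of perineuronal nets, was at 6.43, 4.81 and 5.96 CPM in sham and at 8.46, 6.64 and 5.35 CPM in SCI. The groups overlapped through SCI 3 (log2 fold change 0.28 ± 0.30, SE; 95% interval -0.36 to 0.91; edgeR adjusted p = 0.923). Hapln2, 21.5 kb from Bcan on the same strand, is the link protein of nodes of Ranvier. It was at 25.1, 19.5 and 26.6 CPM in sham and at 36.8, 43.7 and 34.7 CPM in SCI. Its groups did not overlap, and its log2 fold change of 0.71 ± 0.20 (SE) did not pass (edgeR adjusted p = 0.182). Hapln4, 2.22 kb from Ncan, had a log2 fold change of 0.09 ± 0.20 (SE; edgeR adjusted p = 0.972). Hapln3 ends 2 bases from the end of Acan on the other strand and had no count in any library. The strand setting of the counting is not given in the sources used here, so reads at the joint end of Acan and Hapln3 are uncertain.

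Cartilage markers were compared because Acan and Hapln1 are also cartilage genes. Their summed level was 120.0 to 128 CPM in sham and 175 to 193 CPM in SCI over 14 genes (exact two-sided permutation test, p = 0.1, the smallest that 3 against 3 can give; adjusted p = 0.65 over 13 cell type lists). Sox9, which astrocytes also make, and Prg4 held most of those counts, with 2668 and 2366 over the 6 libraries. Prg4 was at 45.7, 64.3 and 29.3 CPM in sham and at 51.9, 56.4 and 83.7 CPM in SCI (TMM-scaled). Among sham libraries Prg4 was highest in sham 2, as were the hepatocyte markers, and their part in it was not tested. Sox9 rose by 0.90 ± 0.18 on the log2 scale (SE; edgeR adjusted p = 0.0215). Of the 8 tested markers 1, Sox9 itself, was called, where 0.929% of all genes were. The adjusted p of Sox9 was 0.0563 with scaling by total counts, 0.175 without sham 1, 0.181 without SCI 1 and 0.147 without SCI 2. The collagen of cartilage, Col2a1, had 17 counts over the 6 libraries, Comp 1 and Matn1 none. Other markers of the list had more, with 471 for Col11a1, 261 for Col11a2, 210 for Cnmd, 175 for Col9a2 and 117 for Ucma. Col11a2 was without overlap and higher in SCI (log2 fold change 0.73 ± 0.29, SE; edgeR adjusted p = 0.519). The part of the list's level in the values of Acan and Hapln1 was not tested.

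Of the membrane proteoglycans, Ptprz1 (ENSMUSG00000068748, chromosome 6, 22875502 to 23052916), a receptor tyrosine phosphatase whose shed ectodomain is the proteoglycan phosphacan, was at 68.1, 40.1 and 82.1 CPM in sham. In SCI it was at 59.5, 36.8 and 74.1 CPM. Each group held one low library, sham 2 and SCI 2, and the spread within groups exceeded the difference (log2 fold change -0.15 ± 0.27, SE; edgeR adjusted p = 0.968). Genes of like level had a median SE of 0.188, against 0.271 for Ptprz1. Its log2 fold change was 0.070 without sham 3 and 0.082 without SCI 2. Cspg5 (neuroglycan C, ENSMUSG00000032482, chromosome 9, 110243783 to 110262576), a transmembrane proteoglycan of neurons and glia with an EGF-like domain, was at 7.75, 7.22 and 14.4 CPM in sham and at 7.62, 9.38 and 3.96 CPM in SCI. The highest and the lowest value came from sham 3 and SCI 3, and the other 4 libraries were close (log2 fold change -0.41 ± 0.35, SE; edgeR adjusted p = 0.888). The log2 fold change of Cspg5 was -0.074 without sham 3 and -0.16 without SCI 3.

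Cspg4 (ENSMUSG00000032911, chromosome 9, 56865033 to 56899870) encodes NG2, a surface proteoglycan of oligodendrocyte precursors and pericytes. It was at 4.86, 1.73 and 3.52 CPM in sham and at 3.14, 1.30 and 1.98 CPM in SCI, on 9 to 37 counts per library. The groups overlapped through sham 2 (log2 fold change -0.60 ± 0.49, SE; 95% interval -1.64 to 0.44; edgeR adjusted p = 0.878). Without sham 1 the log2 fold change of Cspg4 was -0.19, without SCI 2 -0.33, without sham 2 -0.98 and without SCI 1 -1.03. In bulk tissue, fewer cells of a type and less RNA per cell cannot be told apart. Oligodendrocyte precursor markers summed to 111 to 222 CPM in sham and 122 to 219 CPM in SCI (exact permutation test, p = 0.7, adjusted p = 0.945). None of 11 tested was called (0.929% of all genes). Olig1, the most abundant of these markers, averaged 85.2 CPM in sham and 103 CPM in SCI (TMM-scaled), so the sum says little of the scarcer markers. Its log2 fold change was 0.29 ± 0.26 (SE). Pdgfra, the growth factor receptor of these precursors, had one of -0.12 ± 0.33. Values of the 11 ran from -0.96 to 0.29, with 6 above 0. Mural cell markers summed to 554 to 836 CPM in sham against 691 to 827 in SCI. Most of that sum was Vtn, so it says little of the other mural markers. Vtn was at 590, 761 and 392 CPM in sham and at 567, 543 and 768 CPM in SCI (TMM-scaled). Among sham libraries it was highest in sham 2, as were the hepatocyte markers, and their part in it was not tested. Astrocyte markers summed to 4486 to 7187 CPM in sham against 5728 to 6826 in SCI.

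**Figure D3:**
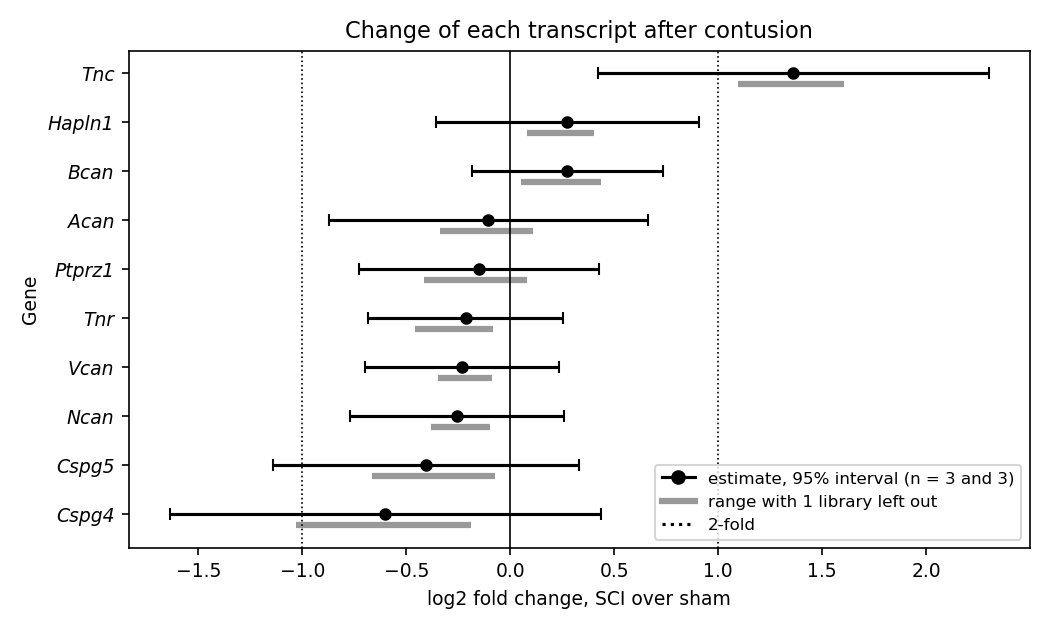
Log2 fold change of SCI over sham for each gene (points) with its 95% interval from edgeR (black bars, n = 3 and 3) and the range when each library in turn was left out (grey). Dotted lines mark 2-fold; the intervals of Tnc, Cspg4 and Cspg5 reach past them, and that of Tnc, from 0.42 to 2.30, is the one that does not include 0.

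The intervals set how large a difference these libraries leave room for. For 7 of the 10 genes (Acan, Bcan, Ncan, Vcan, Ptprz1, Tnr and Hapln1) the 95% interval, not adjusted for the number of genes, lay within 2-fold in both directions. For Cspg4 and Cspg5 it reached past 2-fold lower, and for Tnc past 2-fold higher. A p that missed the threshold does not show that the groups were alike. With the hepatocyte marker level as a covariate the log2 fold change of Tnc was 1.27 ± 0.45 (SE; edgeR adjusted p = 0.235), and none of the 10 genes was called.

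The genes around these proteins were read from lists of enzymes, receptors and proteases. The enzymes that build and sulfate chondroitin chains had 0 of 18 tested members called by edgeR (0.929% of all genes), with 2 at an unadjusted p under 0.05 (7.38% of all genes), and none was called by DESeq2 or limma voom. Their median log2 fold change was 0.03. The 2 smallest p belonged to Dsel and Dse, epimerases that turn chondroitin into dermatan sulfate. Dsel was at 9.72, 8.86 and 10.6 CPM in sham and at 5.44, 5.77 and 6.54 CPM in SCI, without overlap (log2 fold change -0.71 ± 0.26, SE; edgeR adjusted p = 0.456). Dse reached the filter level in 3 sham libraries and 1 SCI library, with 14, 45 and 6 counts in sham and 16, 2 and 2 in SCI. Its groups overlapped, and its log2 fold change was -1.52 ± 0.64 (SE, edgeR adjusted p = 0.583). The most abundant enzyme gene, Chst15, a sulfotransferase of highly sulfated chains, had one of 0.16 ± 0.21. Enzymes of lysosomal breakdown had 0 of 11 called (0.929% of all genes), with 1 at an unadjusted p under 0.05 (7.38% of all genes), and likewise 0 by DESeq2 and limma voom, and a median of -0.0048. The most abundant of these, Ids, had a log2 fold change of 0.016 ± 0.20.

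Receptors and binding partners had 0 of 21 tested members called by edgeR (0.929% of all genes), DESeq2 or limma voom, 3 at an unadjusted edgeR p under 0.05 (7.38% of all genes), and a median log2 fold change of -0.02. The phosphatase receptors of chondroitin sulfate, Ptprs and Ptprf, had log2 fold changes of 0.16 ± 0.22 and -0.10 ± 0.19 (SE). Nptx2, a pentraxin of perineuronal nets, went from 0.997 ± 0.555 to 2.98 ± 1.72 CPM (SD, n = 3, edgeR adjusted p = 0.397). It reached the filter level in 1 sham and 3 SCI libraries, with 6, 6 and 6 counts in sham and 15, 15 and 25 in SCI. Itgav, an integrin subunit that binds Tnc, went from 27.6 ± 2.89 to 39.4 ± 2.73 CPM (edgeR adjusted p = 0.397). Rtn4rl1, a Nogo receptor homologue that binds chondroitin sulfate, was at 11.4, 14.2 and 12.2 CPM in sham and at 6.17, 8.37 and 9.12 CPM in SCI (log2 fold change -0.69 ± 0.25, SE; edgeR adjusted p = 0.440). Fn1, a matrix protein that liver also makes, was the most abundant of this list, with a log2 fold change of -0.14 ± 0.27.

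Proteases that cut lecticans and tenascins, with their inhibitors, had 3 of 17 tested members higher and none lower, where 0.885% of all genes tested were higher. The list was chosen with earlier results of these data known, so this count is not a test of the list. Of the 17, Mmp8, Plat and Timp1 reached the filter level in all 3 SCI libraries but in 0, 0 and 2 sham libraries. Timp1 is 1 of the 3 called. The median log2 fold change was 0.37 with Mmp8, Plat and Timp1 and 0.23 over the other 14. Adamts1, a metalloproteinase that cuts aggrecan, brevican and versican, was at 11.8, 18.2 and 12.2 CPM in sham and at 74.2, 60.3 and 60.3 CPM in SCI. It rose by 2.18 ± 0.21 on the log2 scale (SE; edgeR adjusted p = 6.37e-05). Adamts9, which cuts versican and aggrecan, was at 1.97, 1.83 and 2.17 CPM in sham and at 9.07, 10.4 and 12.1 CPM in SCI, and rose by 2.41 ± 0.31 (edgeR adjusted p = 0.000678). The inhibitor Timp1 rose by 3.63 ± 0.43 (edgeR adjusted p = 0.000404), and these 3 calls held in all 15 alternative fits. Adamts4, another lectican-cutting enzyme, was at 47.9, 26.1 and 55.3 CPM in sham and at 56.3, 57.6 and 56.3 CPM in SCI (log2 fold change 0.41 ± 0.23, SE; adjusted p = 0.760). Sham 3 was close to the SCI libraries. Timp2, the most abundant of the list, had a log2 fold change of 0.16 ± 0.21. That of Timp3 was 0.53 ± 0.18 (edgeR adjusted p = 0.357), and it was called with the hepatocyte covariate (adjusted p = 0.0172).

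**Figure D4:**
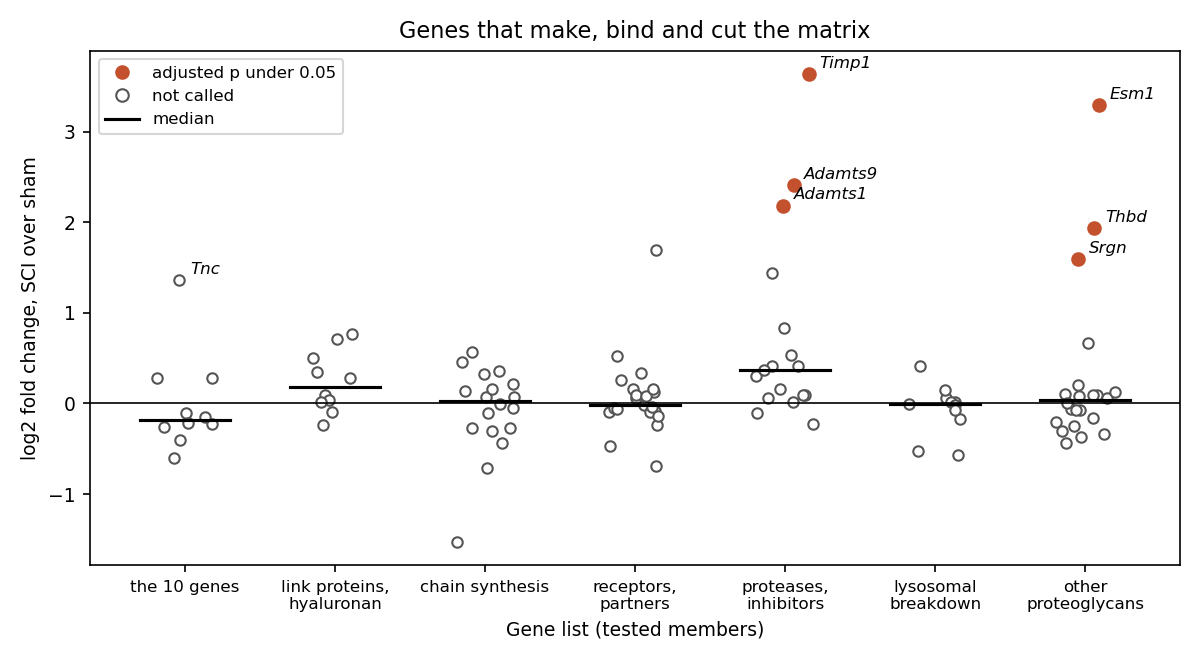
Log2 fold change of SCI over sham for every tested gene of each list (points), filled where edgeR's adjusted p was under 0.05, with bars for list medians. None of the 10 matrix genes is filled, Tnc at 1.36 is the highest of them, and the filled genes lie among the proteases with their inhibitors and among other proteoglycans.

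Other proteoglycans that can carry chondroitin or dermatan sulfate had 3 of 22 tested members higher (0.885% of all genes), none lower and a median of 0.03. This list too was chosen with earlier results of these data known, so its count is not a test of the list. Of the 3, Esm1 passed the filter on low counts through the SCI libraries alone. Esm1, secreted by endothelium, was at 0.525, 0.674 and 0.271 CPM in sham and at 3.51, 6.64 and 6.34 CPM in SCI (log2 fold change 3.29 ± 0.49, SE; edgeR adjusted p = 0.00229). Thbd, the endothelial thrombin receptor, rose by 1.93 ± 0.24 (adjusted p = 0.000441). Srgn, the granule proteoglycan of blood cells, rose by 1.59 ± 0.31 (adjusted p = 0.0171). When sham 1 was left out its adjusted p was 0.128, without SCI 1 it was 0.0609 and without SCI 2 it was 0.161. Erythroid markers were also higher in SCI, with 5 of 6 tested genes called higher (0.885% of all genes). Their summed level was 669 to 849 CPM in sham and 1694 to 4031 in SCI. Within SCI the 2 did not share an order. Srgn was at 12.5, 17.9 and 8.72 CPM, and the erythroid sum at 3012, 1694 and 4031 CPM. The hemoglobin gene Hba-a1 rose by 3.02 ± 0.42 on the log2 scale (SE; edgeR adjusted p = 0.00124). The part of blood in the rise of Srgn was not tested. Aplp2, the most abundant, had a log2 fold change of 0.08 ± 0.20, and decorin (Dcn), a small proteoglycan of fibroblasts, one of 0.10 ± 0.24.

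Link proteins and genes of hyaluronan, the polymer to which lecticans bind, a list that holds Hapln1 too, had 0 of 10 tested members called by edgeR (0.929% of all genes), DESeq2 or limma voom, with 2 at an unadjusted edgeR p under 0.05 (7.38% of all genes) and a median log2 fold change of 0.18. Those 2 were Hapln2 and Cd44, the hyaluronan receptor, which was at 9.98, 11.4 and 7.86 CPM in sham and at 16.0, 17.3 and 17.4 CPM in SCI (log2 fold change 0.77 ± 0.22, SE; edgeR adjusted p = 0.226). With the hepatocyte covariate both passed, at 0.66 ± 0.17 for Hapln2 (adjusted p = 0.0441) and 0.84 ± 0.22 for Cd44 (0.0493). Has2, a hyaluronan synthase named here after its values were seen, fell under the filter. It had 1, 0 and 0 counts in sham and 19, 7 and 2 in SCI, most of them in SCI 1. Corrected for the totals this is a ratio of 31.4 (95% counting interval 5.19 to 1284). Without the filter edgeR called it higher (adjusted p = 0.0380). Has1 had 2 and 8 counts over the groups and Has3 22 and 9. Mmp3, a stromelysin that cuts matrix proteoglycans and was also named after its values were seen, had no count in sham and 4, 8 and 7 in SCI. Set against 3 counts for all sham libraries together, a limit for a count of 0, SCI was 7.10-fold higher when corrected for the totals. That value takes the 19 SCI counts as exact, so it is not a lower bound. Without the filter edgeR called Mmp3 higher (adjusted p = 0.0435).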

How the data were processed

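RNA was measured in spinal cord of 3 sham and 3 SCI mice. Per the labels' protocols and design text, the Lexogen QuantSeq Forward kit was used on 1 µg of total RNA, with single reads of 50 bases. The authors deposited whole-number read counts per Ensembl gene, not normalized, 1 table per library. Reads were aligned with STAR 2.7.2b to mm10 with Ensembl's GRCm38 annotation, per the labels' design text, and DESeq2 1.24.0 is among the tools in the submitters' processing notes. How reads were counted, on which strand, and whether molecular identifiers were used is not given in the sources used here, so intervals of counts cover counting error only.

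Symbols matched 42462 of 43432 identifiers, and the rest held 0.0884% of counts. Of the symbols in the lists, 1 (Lhfpl3) had no match. Genes passed edgeR's filterByExpr (13560 of 21524 with a count) and were then tested with edgeR 4.0.16 in R 4.3.3 (quasi-likelihood, TMM scaling, robust estimation, no covariate). SE is the absolute log2 fold change over the square root of F, and the prior count was 0.125. No library repeated another (chi-square over degrees of freedom at least 6.97 within groups), and the design text gives 3 mice per group. The fit was tested on simulated data. Alternatives were other scalings and filters, DESeq2 1.42.0, limma voom 3.58.1, a replicate term, a hepatocyte covariate and each library left out. The 10 genes and all lists were chosen with earlier results of these data known. Named from each related list were called genes, the 2 smallest p and the most abundant gene. For the lysosomal list the genes of smallest p are not reported here. Ptprs, Ptprf, Rtn4rl1, Adamts4, Timp3, Dcn, Has1, Has3, Pdgfra, Hba-a1 and the cartilage genes were added for their roles after their values were seen. Olig1 and Vtn were named as the most abundant of their marker lists. Positions are from GENCODE M21 and promoter sequences from RefSeq, both on GRCm38. Summed levels of 13 cell type lists, in CPM without TMM scaling, were compared by exact permutation. With 3 against 3 the smallest p is 0.1, so no list could pass 0.05; here it adjusted to 0.65 over the 13 lists.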

Additional observations from a re-analysis of the deposited data

How the results depend on the processing

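None of the 10 genes was called in any of 15 alternative fits. The sign of Acan and of Ptprz1 was not stable when a library was left out. Acan ranged from -0.34 to 0.11 on the log2 scale and was positive without sham 3 (0.11) or SCI 2 (0.013). Ptprz1 ranged from -0.41 to 0.082 and was positive without sham 3 (0.070) or SCI 2 (0.082). The other 8 genes kept their direction in every fit. Over all genes, counts higher and lower were 182 and 42 with no filter and 201 and 22 with the hepatocyte covariate. Leaving out single libraries gave 62 to 132 higher and 1 to 14 lower, the fewest without sham 1. DESeq2's Wald test gave 11 lower. With the replicate number as a block 1 gene was lower, Tnc was at 1.33 (edgeR adjusted p = 0.713) and no gene of the 10 was called, while the adjusted p of Sox9 was 0.164. Same-numbered libraries did not deviate together (correlations across genes of -0.17 to -0.07), so the numbers were not taken as pairs. The link protein and hyaluronan list had 1 gene higher with no filter and 2 with the covariate. The causes of these differences were not tested. Tnc, Cspg4 and Acan rest on 6 to 40 counts per library.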
